A study of Mus musculus with 4 samples.

Results

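The diet comparison in A/J mice set 1 array from mice on a high-fat diet against 1 array from mice on a low-fat diet, 2 of the 4 arrays of the study. Both A/J groups were male, 10 weeks old and fed their diet for 2 weeks. The sources used here do not say what the diets held. Each group held 6 mice, of which 2 of average weight gave RNA from the intestinal mucosa that was pooled for its array, an Affymetrix Mouse Expression Array 430A. The other arrays held pools made in the same way from male C57BL/6J mice of the same age on the same diets, and they are given here only beside the A/J values. A/J is an inbred strain that stays lean on fat-rich food, and C57BL/6J is a strain that becomes obese on it. The segment of intestine is not named there either.

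Absorptive cells of the small intestine take up fatty acids and monoacylglycerol, rebuild triglyceride and send it out in chylomicrons, and they burn part of the fat themselves. Fatty acids activate the nuclear receptor PPAR-alpha, which binds DNA with RXR and is known to raise genes of fatty acid uptake, oxidation and storage in intestine and liver. Digestive enzymes such as trypsinogen and amylase are made by acinar cells of the pancreas. Gastrokines and the trefoil factors Tff1 and Tff2 are made by the stomach lining. The transcripts of both groups were therefore set apart from those of the mucosa.

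The unit of description was the probe set, the group of short oligonucleotides that reads 1 transcript or several alike. Signals were scaled to a common trimmed mean, and a scaled signal under 100 was raised to that floor before a ratio was taken. A probe set was called measured if it reached 100 on either A/J array, which 14241 of 22626 did. Where 1 side lay at the floor, the ratio is only a lower limit, marked by the words at least. With 1 pool a side there was no replicate and no test, so every difference below is one between 2 arrays, and their number limits the precision.

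Of the 14241 measured probe sets, 109 (0.765%) were higher on high-fat by 2-fold or more, and 142 (0.997%) lower by as much. At 1.5-fold the counts were 659 (4.63%) and 720 (5.06%). The median log2 ratio was -0.0049, and the central 95% of the ratios ran from -0.74 to 0.72. The pancreas list held 33 of the 142 lower probe sets and the stomach list 2. Outside both lists 109 were higher (0.768% of 14192) and 107 lower (0.754%), of which 19 and 34 are bounds. These counts were 253 and 320 with a floor of 50, 67 and 49 with a floor of 200, 142 and 211 with a pseudocount of 50, 62 and 71 without probe sets marked as shared, and 45 and 28 at a mean signal of 500 or more. At 1.5-fold, 659 (4.64%) were higher and 679 (4.78%) lower outside the lists. The 107 lower at 2-fold still include the islet gene Ins2 and 7 probe sets low only on the A/J high-fat array, described below. Whether these read transcripts of the mucosa was not tested. The plot of scaled signals on both arrays shows the pancreas probe sets apart from the rest.

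**Figure D1:**
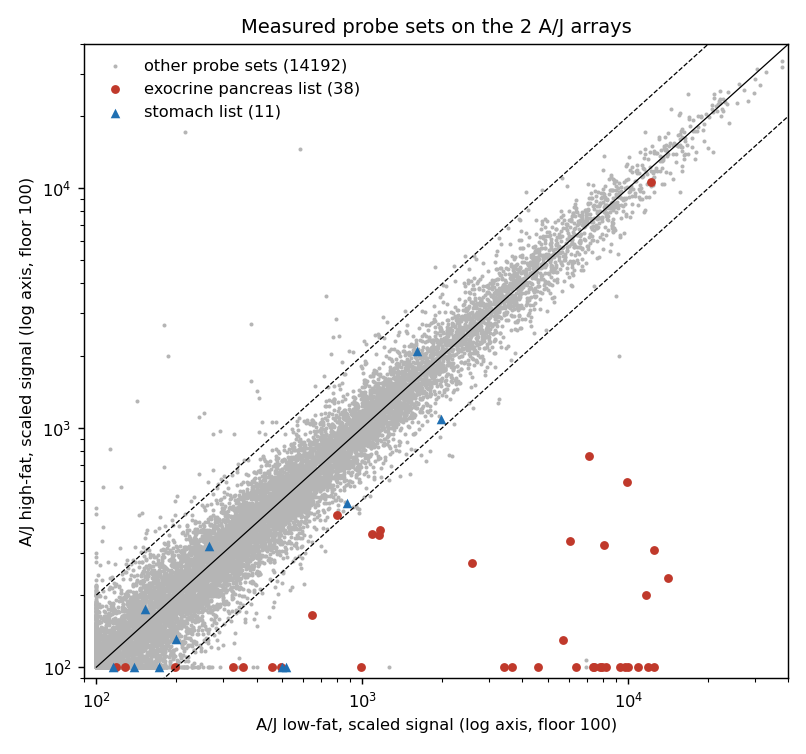
Scaled signal of each measured probe set on the A/J low-fat array (horizontal, log axis) and on the A/J high-fat array (vertical, log axis), with the line of equality and dashed lines at 2-fold either way. Of 38 pancreas probe sets (red), 33 lie below the lower dashed line, while of the 14192 other probe sets (grey) 109 lie above the upper line and 107 below the lower one.

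The only repeat measure within a pair of arrays was a second probe set of the same gene. Over 1932 genes with a pair of probe sets at 200 or more on both arrays, the log2 ratios of a pair differed by a median of 0.239, and 17 pairs (0.880%) differed by 1 or more. This gives an SD of 0.259 for 1 log2 ratio, which holds probe noise and differences between transcripts of a gene, not the spread between mice. Among genes at least 2-fold higher outside the lists, 41 had another measured probe set, and it was at least 1.5-fold higher in 14 of them and at least 1.5-fold lower in 2. Among genes at least 2-fold lower, 50 had another, which was at least 1.5-fold lower in 12 and at least 1.5-fold higher in 1. Most 2-fold differences were thus not matched at 1.5-fold by another probe set of the gene, and such pairs are printed below where a result turns on them. Control probe sets were near level for beta-actin, at 24165 and 22823 at the 3' end. Those for 18S ribosomal RNA gave, at the 5' end, 218 on low-fat and 84.4 on high-fat.

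General markers of the intestinal epithelium and of goblet cells were present and near level. All 15 measured probe sets of the 12 intestinal epithelium genes lay within 1.5-fold, with a median log2 ratio of -0.031, and their summed scaled signal was 165224 on low-fat and 164276 on high-fat. Villin (Vil1), the actin bundler of the brush border, had a scaled signal of 12411 and 11616, the fatty acid binding protein Fabp2 22001 and 23144, and the intestinal transcription factor Cdx2 2981 and 2863. The 11 goblet cell probe sets all lay within 1.5-fold too, with a median of 0.054, and the trefoil peptide Tff3 read 17577 and 19323. Regional markers were less even. Of 9 ileal and colonic probe sets, 2 were higher and 2 lower by 1.5-fold or more, with a median of 0.47. Of 17 duodenal and jejunal ones, 2 were higher and 1 lower by as much, with a median of -0.021. Those shares were 4.63% higher and 5.06% lower over all measured probe sets. Subunits of the respiratory chain and ATP synthase gave 78 probe sets, of which 0 were beyond 1.5-fold, with log2 ratios from -0.52 to 0.52. Smooth muscle markers had a median log2 ratio of -0.35, and their summed signal was 10254 on low-fat and 7958 on high-fat. Smooth muscle actin (Acta2) was 1.63-fold lower, at 1288 and 792.

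Pancreatic enzyme transcripts were present on the low-fat array and had far lower signals on the high-fat array, from under the floor up to 764 for a probe set of colipase. Of 35 measured probe sets annotated to 1 gene of the pancreas list, 30 were at least 2-fold lower, 0 were at least 2-fold higher, and the median log2 ratio was -4.17 with members at the floor taken at their bound. With the probe sets annotated to several genes of the list, 33 of 38 were at least 2-fold lower, beside 0.997% over all. The summed scaled signal of the 35 was 188235 on low-fat and 16401 on high-fat, or 1.18% and 0.103% of all signal. In bulk RNA, fewer cells of a type and less RNA per cell cannot be told apart, and that holds for every list described here.

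Pancreatic proteases are secreted as inactive zymogens. The trypsinogen Prss2 had 4 probe sets, with scaled signals of 9735, 9290, 11626 and 12521 on low-fat and 32.2, 72.6, 200 and 309 on high-fat. All 4 were thus at least 40.5-fold lower. The probe set shared by the trypsinogens Try5 and Try4 read 6349 and 44.0, at least 63.5-fold lower. Chymotrypsinogen Ctrb1 read 14074 and 235, a 59.8-fold difference, and the chymotrypsin-like Ctrl at least a 73.8-fold one. Of the elastases, Cela3b read 10903, 7843, 7448 and 6043 on low-fat and 91.4, 71.8, 5.33 and 336 on high-fat, Cela2a read 8259 and 75.1, and Cela1 read 9913 and 595. A probe set shared by Cela3a and Cela3b was at least 119-fold lower. The carboxypeptidases Cpa1 and Cpb1 read 9945 and 7948 on low-fat and 17.4 and 92.8 on high-fat, or at least 79.5-fold lower in both.

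Enzymes for starch and fat showed the same direction. The probe set shared by the 5 pancreatic amylase genes Amy2a1 to Amy2a5 read 12502 on low-fat and 84.1 on high-fat, at least 125-fold lower. Carboxyl ester lipase (Cel) was 44.0-fold lower, at 5679 and 129. Colipase (Clps), the cofactor that anchors pancreatic lipase on fat droplets, was 9.31-fold lower at 7115 and 764, and 9.47-fold lower in its other probe set. The lipase-related Pnliprp1 was at least 34.2-fold lower, and Pnliprp2 was 3.91-fold and 3.23-fold lower. Phospholipase Pla2g1b was at least 4.96-fold lower, at 496 and 5.61, and the ribonuclease Rnase1 25.2-fold lower, at 8131 and 323.

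Genes of the acinar cell that are not digestive enzymes were lower as well. The zymogen granule proteins Sycn and Gp2 read 4579 and 992 on low-fat and 4.20 and 64.2 on high-fat, which makes Sycn at least 45.8-fold and Gp2 at least 9.92-fold lower. The acinar transcription factor Bhlha15 read 128 and 28.6, so that only a bound of at least 1.28-fold is given. The kallikrein Klk1 was less different, at 3.14-fold, 3.03-fold and 1.86-fold lower in its 3 probe sets. The trypsin inhibitor Spink1 was near level, at 12222 on low-fat and 10614 on high-fat, and was the 1 bright member of the list that stayed within 1.5-fold.

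On the C57BL/6J arrays the same list went the other way. Its median log2 ratio there was 0.65, with 23 of the 35 probe sets higher on high-fat by 1.5-fold or more and 1 lower by as much. Over all measured probe sets in C57BL/6J, those shares were 5.59% and 4.42%. Its summed signal was 197996 on low-fat and 309626 on high-fat. The A/J low-fat sum of 188235 was thus close to the C57BL/6J low-fat sum, and the A/J high-fat array stood apart from the other 3, as the plot over the arrays shows. Whether pancreas was taken with the mucosa in some of the pools was not tested. The islet hormone gene Ins2 was lower too, at 401 and 14.0, at least 4.01-fold. The islet amyloid gene Iapp was at least 2.03-fold lower in 1 probe set, at 203 and 95.9, and read 142 and 116 and 118 and 114 in the others. The transcription factor Pdx1, which the duodenum also expresses, read 494 and 506 in 1 probe set and 210 and 152 in the other.

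**Figure D2:**
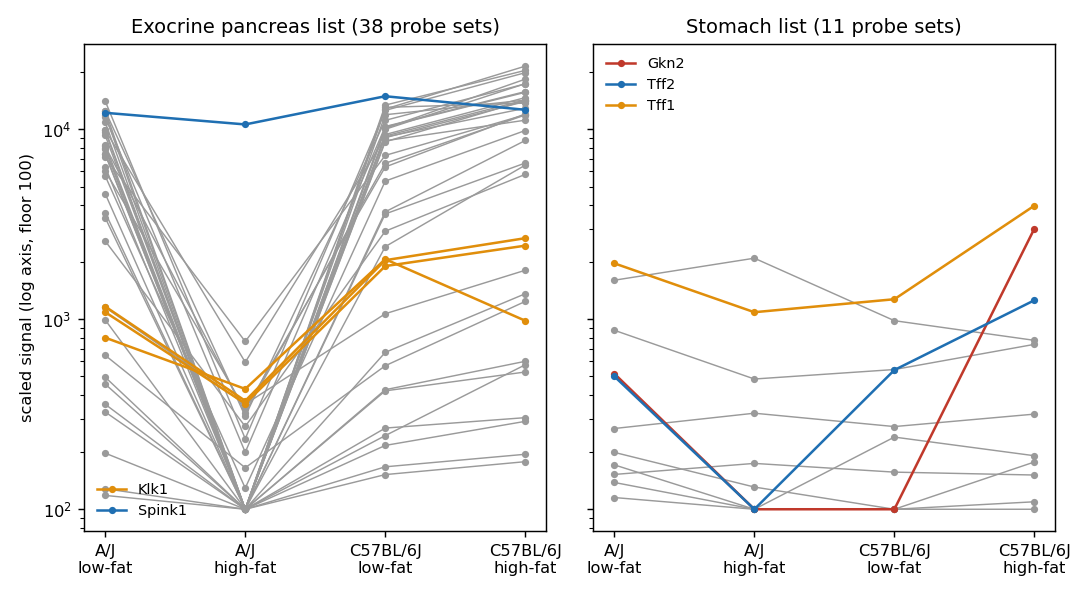
Scaled signal (vertical, log axis, floor 100) of each probe set of the pancreas list (left, 38) and of the stomach list (right, 11) on the 4 arrays. The lines join probe sets, not repeat measures, and nearly all pancreas probe sets are lowest on the A/J high-fat array, while Spink1 stays between 10614 and 14941.

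The promoters of the pancreas genes are shown to describe the list, and their letters do not depend on what the arrays read. Whether they bear on the difference between the arrays was not tested. Acinar genes are known to be driven by PTF1, a complex that contacts an E-box. The E-box CACCTG, searched on both strands, was present in the 250 bases before the start site of 12 of 20 pancreas genes with a RefSeq promoter (60.0%), and in 18.9% of the 6904 measured genes with one. The longer PTF1 box itself was found in 0 of the 20 and in 0 of the 6904, which says nothing of the factor. The sequences below, from RefSeq on GRCm38.p6, are those 250 bases on the strand of the gene, 5′ to 3′, with the E-box or its complement in capitals. Cel holds 4 copies and Cela3b 2. A match is a description of the letters, not of binding.
Cel, chr2:28563404-28563653, minus strand: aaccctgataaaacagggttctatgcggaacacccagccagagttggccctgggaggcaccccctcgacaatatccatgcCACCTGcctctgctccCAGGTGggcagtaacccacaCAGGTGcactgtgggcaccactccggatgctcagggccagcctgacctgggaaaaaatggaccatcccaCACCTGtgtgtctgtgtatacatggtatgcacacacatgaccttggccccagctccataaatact
Cela3b, chr4:137430521-137430770, minus strand: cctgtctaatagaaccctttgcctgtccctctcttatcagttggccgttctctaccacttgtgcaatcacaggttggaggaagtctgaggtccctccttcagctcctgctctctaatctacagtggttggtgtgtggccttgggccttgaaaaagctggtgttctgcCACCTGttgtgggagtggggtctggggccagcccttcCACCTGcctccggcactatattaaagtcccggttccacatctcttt

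Stomach transcripts were fewer and lower. Of 11 measured probe sets of the stomach list, 2 were at least 2-fold lower, 6 at least 1.5-fold lower and 0 at least 1.5-fold higher. Those shares were 0.997%, 5.06% and 4.63% over all measured probe sets. The median log2 ratio of the list was -0.61, and 0.0 with a floor of 200. Gastrokine Gkn2, made by gastric surface cells, read 517 on low-fat and 39.2 on high-fat, at least 5.17-fold lower. The mucous neck trefoil factor Tff2 read 501 and 17.4, at least 5.01-fold lower, and the surface trefoil factor Tff1 read 1971 and 1090, 1.81-fold lower. The acid pump subunit Atp4b was 1.52-fold lower, at 199 and 131. Cathepsin E (Ctse) gave opposite directions in its probe sets, at 875 and 485 in one and 1606 and 2097 in the other. In C57BL/6J, Gkn2 read 38.1 and 3001 and Tff1 1276 and 3965, so that these were higher on high-fat there.

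Some probe sets outside the lists shared this pattern across arrays. Counted after the values were seen, 34 probe sets were at least 4-fold under all 3 other arrays on A/J high-fat: 26 belong to the pancreas list, 1 to the stomach list and 7 to neither. Of these 7, 3 are annotated to 2210010C04Rik, at 6959, 6914 and 463 on low-fat and 47.9, 107 and 30.0 on high-fat. Another is annotated to the amyloid precursor-like gene Aplp1, at 468 and 77.6. The other 3 (1433431_at, 1421868_a_at and 1454623_at) are unnamed here, at 10994, 7574 and 1260 on low-fat and 98.7, 102 and 35.0 on high-fat. By the same count in the other direction, 4 probe sets were at least 4-fold above all other arrays. These were Defa31, the unnamed 1420598_x_at, the probe set shared by Cyp4a31 and Cyp4a10, and Ugt2b5.

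**Figure D3:**
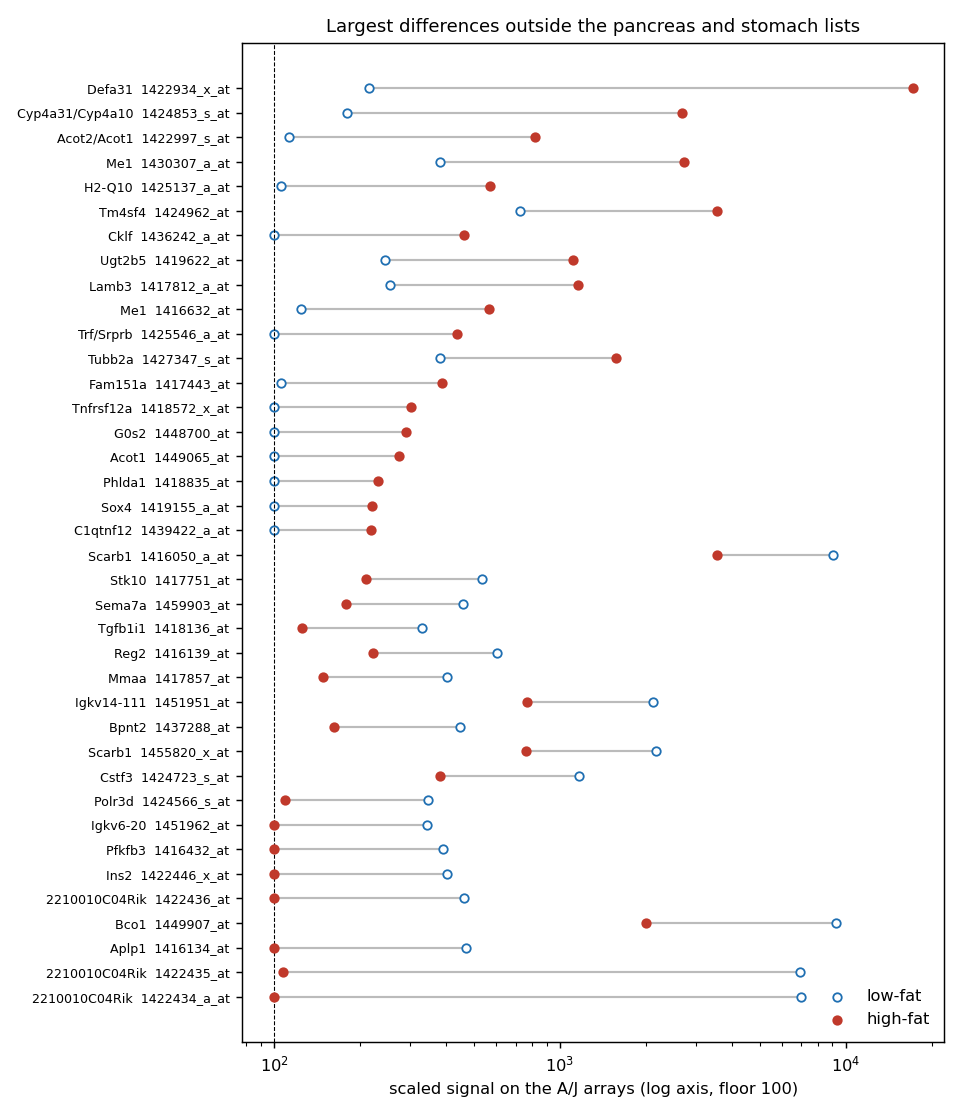
Scaled signal (horizontal, log axis, floor 100) on low-fat (open) and high-fat (filled) for the probe sets with a gene name among the largest A/J differences outside the pancreas and stomach lists. Defa31 runs from 214 to 17160, while the lower end holds 2210010C04Rik and Bco1. Like 26 probe sets of the pancreas list, those of 2210010C04Rik were at least 4-fold under all other arrays on A/J high-fat.

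In the mucosa itself, the highest ratio among probe sets above the floor on both arrays was that of Defa31, an alpha-defensin. Alpha-defensins are antimicrobial peptides of Paneth cells at the crypt base. Defa31 read 214 on low-fat and 17160 on high-fat, 80.0-fold higher, and 5.84 and 51.5 on the C57BL/6J arrays. It therefore stood far above the other 3 arrays on A/J high-fat alone. The unnamed 1420598_x_at read 584 and 14553 in A/J and 200 and 121 in C57BL/6J. Alpha-defensin genes are near-identical copies of each other, and the suffix of the Defa31 probe set marks possible cross-hybridisation, so which copy it reads is uncertain. Other Paneth cell transcripts did not share the difference: the probe set of Defa30 and Defa24 read 5571 and 4935, and lysozyme (Lyz1) 13812 and 11670. Matrilysin (Mmp7), which processes defensins, was 1.66-fold higher, at 629 and 1046. Reg2, a lectin made in gut and pancreas, was 2.71-fold lower at 602 and 222, and its C57BL/6J signals were 7205 and 9288.

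Genes known as targets of PPAR-alpha were higher on high-fat. Of 35 measured probe sets of 23 such genes, 23 were at least 1.5-fold higher, 11 of them at least 2-fold, and 0 were at least 1.5-fold lower. The shares over all probe sets outside the pancreas and stomach lists were 4.64%, 0.768% and 4.78%. The list had a median log2 ratio of 0.81, against -0.0042 over those probe sets, and 0.53 in C57BL/6J. The summed scaled signal of the list was 84586 on low-fat and 122995 on high-fat. The plot of ratios by list shows this group to the right of the others.

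**Figure D4:**
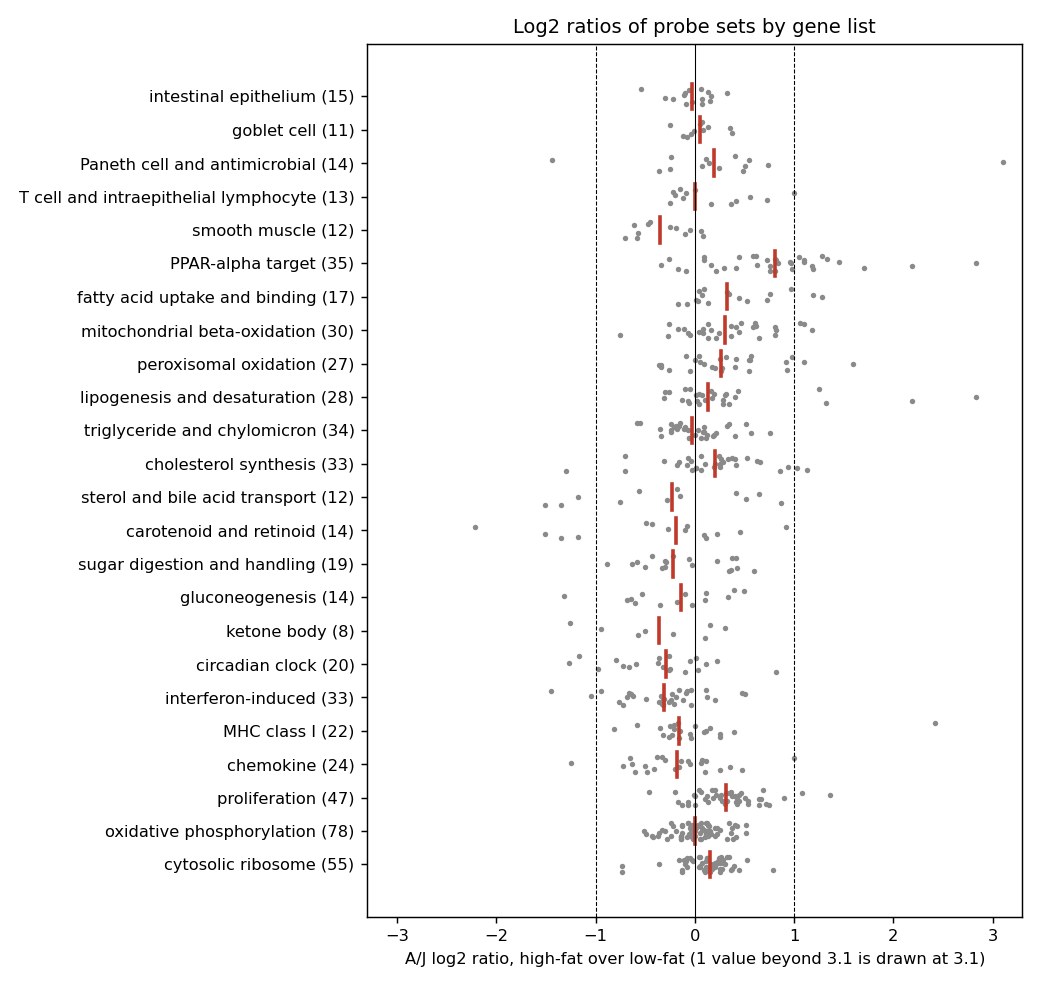
Log2 ratio of high-fat over low-fat in A/J (horizontal) for each measured probe set annotated to 1 gene in selected gene lists, with the number of probe sets in brackets, the median as a red bar and dashed lines at 2-fold either way. The PPAR-alpha list has a median of 0.81, while the interferon-induced and clock lists have medians of -0.31 and -0.29.

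Uptake and transport genes are described first. The fatty acid translocase Cd36 read 1193, 140 and 1211 on low-fat and 2891, 319 and 2369 on high-fat in its 3 probe sets, or 2.42-fold, 2.28-fold and 1.96-fold higher. The water and glycerol channel Aqp3 had 3 probe sets too, at 420, 340 and 39.4 on low-fat and 1060, 704 and 155 on high-fat. In both genes all probe sets went one way. The acyl-CoA synthetase Slc27a2 was 1.66-fold higher, at 3172 and 5255. The liver-type binding protein Fabp1 was 1.68-fold higher in 1 probe set, at 8081 and 13617, and near level in the other, at 23657 and 25134.

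Oxidation genes of the list were higher in part. The carnitine carrier Slc25a20, which brings acyl groups into mitochondria, was 2.15-fold and 2.26-fold higher, at 1149 and 2468 and at 662 and 1496. Cpt1a, which makes the acylcarnitine, was 1.76-fold higher at 1726 and 3039, but its dim probe set read 115 and 102. Hadha, a subunit of the trifunctional protein, read 3335 and 5841, and the long-chain dehydrogenase Acadl 4742 and 7280. The medium-chain dehydrogenase Acadm was within 1.5-fold, at 3766 and 4352, as was the peroxisomal Ehhadh, at 1671 and 1784. Over the wider list of mitochondrial beta-oxidation, 9 of 30 probe sets were higher by 1.5-fold or more, 1 was lower by as much, and the median was 0.30. Those shares were 4.63% and 5.06% over all measured probe sets. The isomerase Eci1 of that list was 2.08-fold higher, at 1151 and 2391.

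Peroxisomal oxidation gave 5 of 27 probe sets at least 1.5-fold higher, 0 at least 1.5-fold lower, and a median of 0.26. Beside these stand 4.63% and 5.06% over all measured probe sets. The thiolase Acaa1b was 2.14-fold higher, at 2212 and 4741, the isomerase Ech1 1.91-fold, at 2664 and 5084, and the bifunctional Hsd17b4 1.88-fold, at 2064 and 3890. A dim probe set of the lipid carrier Scp2 was 3.01-fold higher, at 144 and 433, while its brightest read 16943 and 19498. Pex11a, which makes peroxisomes divide, was 1.97-fold higher at 324 and 636, and 1.33-fold higher in its other probe set.

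Among probe sets of 1 gene, the highest ratios of the list were those of Me1 and Pdk4. Malic enzyme (Me1), which makes NADPH, was 7.11-fold and 4.54-fold higher, at 381 and 2712 and at 124 and 564. The pyruvate dehydrogenase kinase Pdk4, which spares glucose, was 3.25-fold higher, at 409 and 1331. The cytosolic thioesterase Acot1 read 38.9 and 274, at least 2.74-fold higher. Secreted and droplet proteins of the group were higher as well. The lipase inhibitor Angptl4 read 337 and 653, and the droplet coat protein Plin2 3935 and 6650. G0s2, an inhibitor of the lipase of lipid droplets that is not on the list, read 63.9 and 288, at least 2.88-fold higher.

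Probe sets annotated to several genes were described apart, since they cannot say which copy was read. The probe set of Cyp4a31 and Cyp4a10, fatty acid omega-hydroxylases, read 180 on low-fat and 2679 on high-fat, 14.9-fold higher. It read 68.9 and 366 in C57BL/6J. The probe set of Acot2 and Acot1 read 113 and 816, 7.23-fold higher, and that of Cyp4f37 and Cyp4f16 5615 and 11054, 1.97-fold higher. Of 458 measured probe sets annotated to several genes, 5 were higher by 2-fold or more (1.09%) and 5 lower by as much (1.09%), shares near those over all measured probe sets. The other higher ones were Trf with Srprb, at 17.1 and 436, Gm32211 with the ribosomal protein Rpl39, at 4755 and 9795, and Gm5963 with the ribosomal protein Rps21, at 2423 and 5228. Besides the 3 pancreatic ones, Apol9a with Apol9b was 2.08-fold lower, at 1257 and 605, and Entpd4b with Entpd4 2.12-fold lower, at 248 and 117.

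PPAR-alpha with RXR binds pairs of the half-site AGGTCA spaced by 1 base. The half-site itself, on either strand, lay in the 250 bases before the start site of 7 of 21 list genes with a promoter (33.3%) and of 13.6% of the 6904 measured genes. The exact pair was found in 0 of the 21 and in 3 of the 6904. That search allowed no mismatch, so it says nothing of the receptor. In the Fabp1 promoter below, the half-site at 67 bases is followed, 1 base on, by tggcct, which differs from TGACCT by 1 letter. The promoter of Fabp1 (RefSeq, GRCm38.p6) is shown because it holds 2 half-sites, 67 and 9 bases before the start site, in capitals on the opposite strand.
Fabp1, chr6:71199629-71199878, plus strand: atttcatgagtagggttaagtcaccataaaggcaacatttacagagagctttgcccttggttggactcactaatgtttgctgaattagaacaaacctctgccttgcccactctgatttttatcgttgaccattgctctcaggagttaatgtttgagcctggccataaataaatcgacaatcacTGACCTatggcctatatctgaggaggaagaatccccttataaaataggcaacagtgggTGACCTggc

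Triglyceride assembly and chylomicron genes did not share the difference of the oxidation genes. Of 34 probe sets, 1 (Plin2) was higher by 1.5-fold or more, 0 were lower by as much, and the median was -0.027. Those shares were 4.63% and 5.06% over all measured probe sets. The diacylglycerol acyltransferase Dgat1 read 15096 and 15101, the chylomicron protein Apob 16248 and 13787, and the transfer protein Mttp 15620 and 20609 in 1 probe set and 7251 and 9090 in the other. Dgat2 was lower by less than 1.5-fold, at 6768 and 4532 and at 8708 and 6831. In lipid synthesis 4 of 28 probe sets were at least 2-fold higher (0.765% over all measured probe sets), 2 of them of Me1. The others were single probe sets of the desaturase Fads2, at 198 and 494, and the elongase Elovl7, at 154 and 365, and the other probe sets of these genes read 366 and 393 and 1280 and 1171.

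Cholesterol synthesis was mixed, with 6 of 33 probe sets higher by 1.5-fold or more, 3 lower by as much, and a median of 0.20. Those shares were 4.63% and 5.06% over all measured probe sets. Msmo1, a sterol demethylation enzyme, was 2.20-fold higher, at 1114 and 2447, and squalene epoxidase (Sqle) 1.81-fold higher, at 543 and 984. Dhcr7, which makes the last step to cholesterol, was 1.63-fold lower, at 929 and 570. A probe set of Sc5d was 2.45-fold lower, at 391 and 159, and the other, at 1502 and 1475, was level.

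Scarb1 and Bco1 stood out among genes of sterol and carotenoid uptake. Scarb1, the scavenger receptor that takes up lipoprotein lipid and carotenoids, read 9018, 2174 and 1798 on low-fat and 3553, 763 and 797 on high-fat, or 2.54-fold, 2.85-fold and 2.26-fold lower. All 3 probe sets went one way. In C57BL/6J they read 554, 158 and 165 on low-fat and 863, 235 and 219 on high-fat. Bco1, the oxygenase that splits beta-carotene, was 4.64-fold lower, at 9248 and 1995, and read 662 and 218 in C57BL/6J. Aldh1a1, which makes retinoic acid, was higher by 1.89-fold, at 3277 and 6206, and the retinol binding protein Rbp2 was near level, at 17105 and 18250. The efflux pump Abca1 was 1.69-fold lower in 1 probe set, at 465 and 275, and read 170 and 154 in the other. Nr0b2, the repressor of bile acid synthesis, read 180 and 329.

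Sugar handling and glucose release were lower in part. Of 19 probe sets of sugar digestion and handling, 3 were lower by 1.5-fold or more, 1 was higher by as much, and the median was -0.22. For this list and for gluconeogenesis below, the shares over all measured probe sets were 5.06% lower and 4.63% higher. The brush border glucose carrier Slc5a1 was 1.84-fold lower in 1 probe set, at 3763 and 2043, and 1.17-fold lower in the other, at 15083 and 12914. The triokinase Tkfc, of fructose breakdown, was 1.55-fold lower, at 3166 and 2048, and the exit carrier Slc2a2 was lower by about as much, at 7782 and 5183. The fructose carrier Slc2a5 read 6929 and 4893. Of 14 gluconeogenesis probe sets, 4 were lower by 1.5-fold or more and 0 higher by as much, with a median of -0.14. The pair of Mdh1 probe sets among the 4 read 4938 and 3078 and 3959 and 2600, while the third read 15427 and 16657. G6pc, the catalytic subunit of glucose-6-phosphatase, was 2.49-fold lower, at 3274 and 1315, and Fbp1 1.56-fold lower, at 8540 and 5473. Pck1, at 1545 and 1361, was within 1.5-fold. Pfkfb3, an activator of glycolysis, read 390 and 92.5, at least 3.90-fold lower.

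Oxct1, the transferase that lets tissues burn ketone bodies, was lower on high-fat. Its probe sets read 1736, 2258 and 202 on low-fat and 725, 1520 and 105 on high-fat, or 2.40-fold, 1.49-fold and 1.92-fold lower. The C57BL/6J values were 1904, 3392 and 360 on low-fat and 1220, 2746 and 285 on high-fat. All 3 were thus lower on high-fat in both strains. Bdh1, which interconverts the ketone bodies, read 2992 and 2106 in A/J.

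Detoxifying enzymes had no common direction. Among conjugating enzymes and esterases, 5 of 34 probe sets were higher by 1.5-fold or more, 1 was lower by as much, and the median was 0.018. Those shares were 4.63% and 5.06% over all measured probe sets. The carboxylesterases Ces1f and Ces2a were 2.28-fold and 1.84-fold higher, at 1011 and 2303 and at 2221 and 4097, and the glutathione transferase Mgst1 1.87-fold higher, at 3926 and 7360. The esterase Ces1d read 263 and 78.8, at least 2.63-fold lower. The glucuronosyltransferase Ugt2b5, which is not on the list, read 244 and 1113, 4.56-fold higher. Of 21 cytochrome P450 probe sets, 1 was higher by 1.5-fold or more, a share near the 4.63% over all measured probe sets. Lower by as much were 3, beside 5.06% over all, and the median was -0.028. The fatty acid hydroxylase Cyp4f16 was 1.92-fold higher, at 3880 and 7430, and read 539 and 701 in its other probe set. Cyp27a1, which oxidises sterol side chains, was 2.35-fold lower, at 1511 and 644, and Cyp3a13 1.90-fold lower, at 7399 and 3903.

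The interferon-induced list was lower as a group, by modest amounts. Its 29 genes had 33 measured probe sets, 9 of them lower by 1.5-fold or more and 0 higher by as much. Over all measured probe sets in A/J, 5.06% were lower and 4.63% higher by 1.5-fold. Of the 33, 28 were lower by any amount, and the list median was -0.31. In C57BL/6J the list median was -0.63, and 19 were at least 1.5-fold lower (4.42% over all probe sets measured there). Ifit2, of the family that binds viral RNA, read 273 and 59.4, at least 2.73-fold lower. Trim30a was 2.07-fold lower, at 593 and 286, the signal transducer Stat2 1.92-fold, at 334 and 174, and the ISG15 protease Usp18 1.69-fold, at 1475 and 872. Other probe sets of Trim30a and Stat2 differed less, at 323 and 259 and at 624 and 485. Ifit1 read 3532 and 2195 and Ifit3 614 and 398. Other members were level, such as Irf7, at 2286 and 2101, or higher by less than 1.5-fold, such as Iigp1, at 479 and 679.

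The interferon-stimulated response element, searched as GAAA, 2 free bases and GAAA on both strands, lay within 250 bases before the start site in 11 of 23 genes of the list with a promoter (47.8%) and in 3.39% of the 6904 measured genes. The promoters of Ifit1 and Ifit3 (RefSeq, GRCm38.p6) are shown because each holds 2 copies, in capitals, on the opposite strand. They lie 104 and 85 bases before the start site in Ifit1 and 156 and 122 bases before it in Ifit3.
Ifit1, chr19:34640639-34640888, plus strand: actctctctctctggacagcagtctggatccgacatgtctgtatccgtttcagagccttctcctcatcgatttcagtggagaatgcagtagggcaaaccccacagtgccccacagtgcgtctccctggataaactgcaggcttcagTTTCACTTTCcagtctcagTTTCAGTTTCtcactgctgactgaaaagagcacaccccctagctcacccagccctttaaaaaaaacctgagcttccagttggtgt
Ifit3, chr19:34583279-34583528, plus strand: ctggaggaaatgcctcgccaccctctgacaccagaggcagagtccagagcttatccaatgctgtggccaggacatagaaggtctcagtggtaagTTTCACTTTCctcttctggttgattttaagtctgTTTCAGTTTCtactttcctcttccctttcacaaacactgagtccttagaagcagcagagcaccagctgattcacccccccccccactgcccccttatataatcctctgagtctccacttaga

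Immune cell markers did not follow the interferon list. T cell and intraepithelial lymphocyte markers had a median of 0.0055. Of 13 probe sets, 2 were higher by 1.5-fold or more and 0 lower by as much, beside 4.63% and 5.06% over all probe sets. In C57BL/6J the median of these markers was -0.67 with 9 at least 1.5-fold lower, again beside 4.42% over all probe sets. The chemokine Ccl5 was 1.99-fold higher, at 743 and 1480, and granzyme B (Gzmb) 1.65-fold higher, at 351 and 581. The epithelial chemokine Ccl20, which draws dendritic cells and B cells to lymphoid follicles, was 2.38-fold lower, at 482 and 203, and read 1040 and 2768 in C57BL/6J. Of 32 immunoglobulin probe sets, 1 was at least 2-fold higher and 2 lower, beside 0.765% and 0.997% over all measured probe sets. At 1.5-fold 3 were higher and 5 lower, beside 4.63% and 5.06% over all, and the median was -0.13. Those 2-fold lower were the light chain segments Igkv14-111, at 2116 and 770, and Igkv6-20, at 343 and 89.4. The class I gene H2-Q10 read 106 and 567, 5.35-fold higher, while 1 of 22 class I probe sets was lower by 1.5-fold or more, a share near the 5.06% over all measured probe sets.

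Clock output genes were lower in part. The 13 clock genes had 20 probe sets, 7 of them lower by 1.5-fold or more and 1 higher by as much. Over all measured probe sets in A/J, 5.06% were lower and 4.63% higher by 1.5-fold. The list median was -0.29, and -0.025 with a floor of 200. In C57BL/6J it was 0.0078, with 5 of the 20 under the floor on both arrays, all of Dbp, Hlf, Per3 or Tef, whose ratio in those probe sets is not measured there. The output factor Hlf was 2.41-fold and 2.24-fold lower, at 299 and 124 and at 229 and 102. The related factor Tef was 1.65-fold lower in 1 probe set, at 1545 and 937, and read 284 and 238 and 186 and 156 in the others. Dbp, the third of these factors, was 1.97-fold lower in 1 probe set, at 919 and 467, and read 910 and 708 in the other. The repressors Per3, Per2 and Per1 read 282 and 163, 165 and 104, and 161 and 107. Arntl, the activator of the opposite phase, was 1.77-fold higher, at 174 and 308. Most of these lie at low signal, and Nr1d1, at 1016 and 982, was level. The sources used here do not give the time of day of collection, and its part in these differences was not tested.

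Proliferation genes were higher by small amounts. Of 47 probe sets, 9 were higher by 1.5-fold or more and 0 were lower by as much, beside 4.63% and 5.06% over all measured probe sets. Higher by any amount were 40, and the median was 0.32. Cyclin D1 (Ccnd1) read 122 and 314 in 1 probe set, 2.57-fold higher, and 428 and 582 and 509 and 739 in the others. The replication helicase subunit Mcm2 was 2.12-fold and 1.86-fold higher, at 150 and 318 and at 148 and 276. The microtubule regulator Stmn1 read 784 and 1315.

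Of 33 tubulin and cell junction probe sets, 3 were higher by 1.5-fold or more, 1 was lower by as much, and the median was 0.15. Those shares were 4.63% and 5.06% over all measured probe sets. The 3 higher ones were each at least 2-fold apart. The tubulin Tubb2a was 4.11-fold higher, at 381 and 1567, the laminin subunit Lamb3 of the basement membrane 4.55-fold, at 253 and 1154, and the membrane protein Tm4sf4 4.89-fold, at 727 and 3559. In C57BL/6J they read 177 and 1366, 207 and 732, and 1036 and 3741, so that all 3 were higher on high-fat there too.

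A few other genes had higher signals on high-fat. The receptor Tnfrsf12a, of the cytokine TWEAK, read 149 and 440 in 1 probe set and 23.6 and 301 in the other. The phosphate carrier Slc34a2 read 773 and 2381 in A/J but 2795 and 1857 in C57BL/6J. Of 21 iron, haem and metal probe sets, 2 were higher by 1.5-fold or more, 0 lower by as much, and the median was 0.13. Those shares were 4.63% and 5.06% over all measured probe sets. The iron exporter ferroportin (Slc40a1) was 1.96-fold higher in 1 probe set, at 2010 and 3932, and less so in the other, at 2934 and 3688.

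The C57BL/6J pair shares no array with the A/J pair, so it is a second look at diet in another strain and not a replicate. Its own background was 142 of 13987 measured probe sets at least 2-fold higher (1.02%) and 87 lower (0.622%). Of the 109 probe sets at least 2-fold higher in A/J outside the lists, 26 were at least 2-fold higher in C57BL/6J too and 1 at least 2-fold lower, and 74 were higher by any amount. Of the 107 lower ones, 9 were at least 2-fold lower there and 2 at least 2-fold higher, and 60 were lower by any amount. The median C57BL/6J log2 ratio was 0.38 over the first set and -0.095 over the second. The 18S signal at the 5' end also differed between the C57BL/6J arrays, at 11010 on low-fat and 1675 on high-fat. Its part in these counts was not tested.

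**Figure D5:**
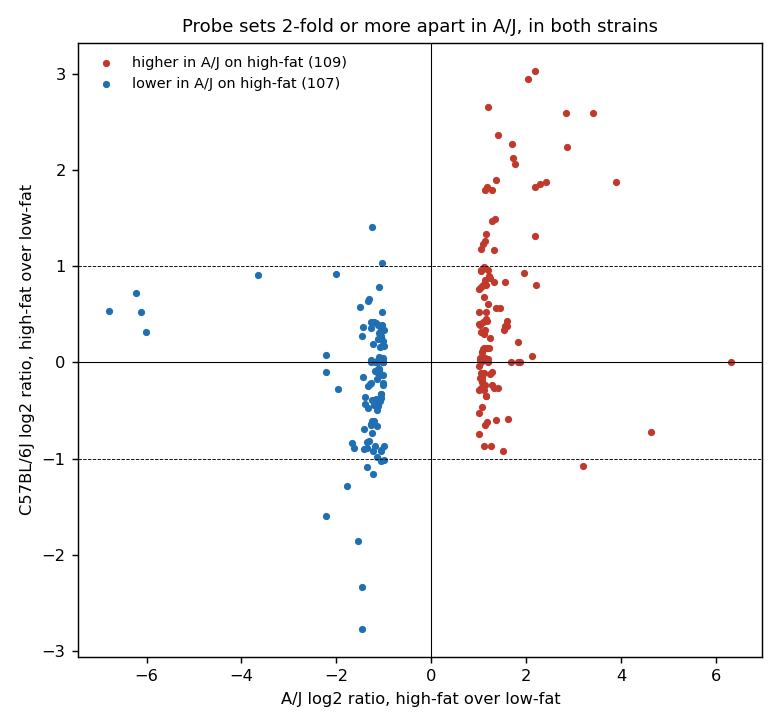
Log2 ratio of high-fat over low-fat in A/J (horizontal) and in C57BL/6J (vertical) for the probe sets at least 2-fold apart in A/J outside the pancreas and stomach lists, with dashed lines at 2-fold in C57BL/6J. Of the 109 higher in A/J (red), 26 reach the upper line, and of the 107 lower (blue), 9 reach the lower one.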

How the data were processed

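RNA from intestinal mucosa was hybridised to 4 arrays, 1 pool per group, and the A/J pair is described here. Per the labels, the deposited values are the authors' hybridisation intensity per probe set, a linear signal that Microarray Suite 5.0 computed at its default parameters from paired matched and mismatched probes; the sources used here give no scaling target. Of 22690 probe sets, 64 controls were set aside. The platform annotation lists 1 gene for 20380 of the other 22626, several genes for 691 and none for 1555; the last are given by ID. Gene numbers of 20351 matched the RefSeq table (GRCm38.p6).

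Each array was multiplied (by 2.72 for A/J low-fat, 2.80 for A/J high-fat, 3.08 for C57BL/6J low-fat and 3.41 for C57BL/6J high-fat) to bring its mean, trimmed by 2% at each end, to 500. A floor of 100 was set before log2 was taken. No test was run, since each group had 1 array, and nothing says how much pools of 1 group differ. The share of probe sets that reached the floor was 58.6% to 60.3% by array. The ratio step was tested on simulated data before use.

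The comparison, the 48 gene lists and the rules were chosen with earlier results of these data known, so the lists are not independent evidence. Every measured member of the pancreas and stomach lists was eligible for naming. Outside them the rule took the 15 highest and 15 lowest ratios, the 8 brightest bounds each way, up to 5 members of each list each way at 1.5-fold or more, and each probe set of several genes at 2-fold or more, with the other probe sets of those genes. Aqp3, Hadha, Acadl, Angptl4, Ifit1, Ifit3, Per1, Per2, Bdh1, Slc34a2 and Slc2a5 were added after their values were seen, and members within 1.5-fold were named to show the range of their list. Alternatives were quantile normalization, no scaling, scaling on the median, a trimmed mean without the pancreas and stomach lists, floors of 50 and 200, a pseudocount of 50, and filters on probe sets. Motifs were searched on both strands of the 250 bases before each RefSeq start site. Python 3.11.15 with numpy 2.4.6, pandas 2.3.3 and matplotlib 3.10.9 was used.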

Additional observations from a re-analysis of the deposited data

Results flagged for a closer look

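Several probe sets were at least 2-fold apart with diet in opposite directions in the 2 strains. The difference between the strains was not tested, since each group had 1 array. Where the A/J high-fat signal lay at the floor, the A/J log2 ratio is a limit, written as that value or lower. Among transcripts of the pancreas list, the zymogen granule protein Sycn had log2 ratios of -5.52 or lower and -5.19 or lower in A/J against 1.25 and 1.43 in C57BL/6J. Gp2 had -3.31 or lower and 1.03, Cuzd1 -2.19 or lower and 1.24, and a probe set of the lipase-related Pnliprp2 -1.97 and 1.13. The list as a whole had a median of -4.17 in A/J, with members at the floor taken at their bound, and 0.65 in C57BL/6J. Of the stomach list, gastrokine Gkn2 had -2.37 or lower and, with its C57BL/6J low-fat signal at the floor, 4.91 or higher. The trefoil factor Tff2 had -2.32 or lower and 1.22.

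Outside these lists, the chemokine Ccl20 had log2 ratios of -1.25 in A/J and 1.41 in C57BL/6J, and a probe set of the sorting receptor Sort1 -1.05 and 1.03. The other Sort1 probe sets read 253 and 278 and 967 and 1099 in A/J. The unnamed probe set 1422242_at had 3.19 in A/J and -1.07 in C57BL/6J.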

How the results depend on the processing

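The counts at 2-fold depended on the floor and on the probe sets kept, and less on scaling. Probe sets higher numbered 109 in the main setting; those lower numbered 142 in all and 107 outside the pancreas and stomach lists. A floor of 50 gave 253, 358 and 320, a floor of 200 gave 67, 82 and 49, and with a pseudocount of 50 the lower counts were 252 and 211. Without probe sets marked as shared between transcripts they were 62, 88 and 71, and a minimum mean scaled signal of 500 gave 45, 56 and 28; fewer probe sets were counted there. Higher probe sets were the same in number with and without the lists in each setting. Under the 4 scalings, higher counts ran from 105 to 129, lower counts from 128 to 174 and lower counts outside the lists from 93 to 138, and all 303 named ratios and 48 list medians stayed within the spread of a ratio. Apart from quantile normalization, each scaling multiplied an array by 1 factor, so above the floor it moved all log2 ratios by the same amount. The median over all measured probe sets was -0.050 without scaling and 0.033 scaled on the median. It was -0.024 with the lists left out of the trimmed mean, against -0.0049 in the main setting. Staying within the spread under these scalings therefore says little. Of the 303 named ratios, 42 moved by more than the spread of a ratio with a floor of 50. With a floor of 200 it was 92, and with the pseudocount 55. List medians moved by more in 10 cases, among them the clock list, at -0.025 with a floor of 200, and the pancreas list, at -3.22 without shared probe sets and -5.34 at a mean signal of at least 500. The list medians that changed sign were the carotenoid and retinoid list, 0.0935 without shared probe sets, and the liver list, 0.26, and chemokine list, 0.11, at a mean signal of at least 500; the cause was not tested. Differences near the floor rest on dim signal. No paired analysis was possible because each group had 1 array.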
